A study of Mus musculus with 24 samples.

Results

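Ribosomal protein genes encode the protein part of the cytoplasmic ribosome. They were followed here in bulk RNA sequencing of lumbar spinal cord (segments L4 to L6) from 24 C57BL/6J mice. The genes were taken by name: every row of the count table whose symbol is Rpl or Rps followed by a number and, at most, one of the suffixes a, x, l, l1 or al, together with Rplp0, Rplp1, Rplp2 and Rpsa. This gave 87 of the 55418 genes in the table, 54 of the large subunit and 33 of the small subunit. Names such as Rps3a1 and Fau fall outside the rule and are given separately.

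Wild-type mice were compared with mice whose Chrna7 gene, for the nicotinic receptor subunit alpha7, was deleted in myeloid cells (Chrna7-cKO, called knockout below; no source used here names the Cre driver). Mice were 8 to 10 weeks old at the start. They received either paclitaxel, a microtubule-stabilising chemotherapy drug that causes painful neuropathy, at 1 mg/kg in 4 injections every other day, or its vehicle of Kolliphor, ethanol and water, and tissue was collected 7 days after the first of them. Females and males were treated in both genotypes, with 3 mice in each of the 8 groups.

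The 23 libraries analysed together held about 88812300 to 112158000 counted reads each. One library, wild-type female paclitaxel replicate 3 (library number 23), did not carry the markers of its labelled tissue: its oligodendrocyte markers summed to 3264 CPM (reads scaled to a common library total) against 24621 to 29403 in the others, and its dorsal root ganglion neuron markers to 6617 CPM against 142 to 194. It is called the ganglion-like library, was left out of all fits and group values unless stated, and is described at the end. The other 23 libraries are called cords. Chrna7 itself lay at 9.38 to 15.9 CPM in 11 wild-type cords and at 9.09 to 14.5 CPM in 12 knockout cords. These ranges overlap. Bulk cord does not separate the myeloid cells in which the gene was deleted, so this is no check of the genotype labels. The library numbers add a second limit. Libraries 1 to 12 hold vehicle-treated females and paclitaxel-treated males, and libraries 13 to 24 hold paclitaxel-treated females and vehicle-treated males. A difference between these library sets therefore cannot be told apart from a sex difference in the paclitaxel response, whereas both genotypes are equally divided between the sets.

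Ribosomes are built in the nucleolus from ribosomal RNA and about equal numbers of most ribosomal proteins. The messages of mammalian ribosomal protein genes usually start with a terminal oligopyrimidine (TOP) tract, a run of C and T at the first base through which the mTOR pathway and Larp1 control their translation. In neurons, part of the ribosome pool and of these messages is carried into dendrites and axons. In bulk tissue, fewer cells of a type and less RNA per cell cannot be told apart.

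RefSeq start sites (build GRCm38.p6) were found for 64 of the 87 genes. Stretches from 40 bases before to 20 bases after the start are shown for genes that return below, to let a reader see which of them carry the tract that the family is known for. Capitals mark a tract of at least 5 pyrimidines that begins with C within 5 bases of the start site. Rpl31, Rpl15 and Rps18 carry one, and Rpl26, Rpl11 and Rplp0 do not under this definition.

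Rpl31: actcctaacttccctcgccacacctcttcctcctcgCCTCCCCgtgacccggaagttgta
Rpl15: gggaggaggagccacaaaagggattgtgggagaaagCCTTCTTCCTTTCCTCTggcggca
Rps18: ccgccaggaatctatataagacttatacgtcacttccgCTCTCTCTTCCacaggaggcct
Rpl26: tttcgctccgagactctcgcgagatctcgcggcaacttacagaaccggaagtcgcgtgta
Rpl11: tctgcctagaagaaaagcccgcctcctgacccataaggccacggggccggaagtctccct
Rplp0: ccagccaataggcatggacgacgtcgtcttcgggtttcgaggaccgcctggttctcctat

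These stretches lie at chr1:39367811-39367870 (plus strand) for Rpl31, chr14:18270967-18271026 (minus) for Rpl15, chr17:33955646-33955705 (minus) for Rps18, chr11:68901526-68901585 (plus) for Rpl26, chr4:136053374-136053433 (minus) for Rpl11 and chr5:115559427-115559486 (plus) for Rplp0. Each spans the end of the promoter and the first transcribed bases. Over the 76 start sites of the 64 genes, 42.1% held the tract, against 18.3% of the 32851 start sites of all genes. In the longer windows from 250 bases before to 50 after the start, searched on both strands, CCGGAAGT (a word of the kind bound by ETS factors, seen above in Rpl31, Rpl26 and Rpl11) stood in 15.8% of the ribosomal protein windows and 3.89% of all windows. TCTCGCGA, a word known from promoters of housekeeping genes, stood in 14.5% and 0.995%, and the TATA box word TATAAA in 10.5% and 13.6%. These matches describe the windows and are not evidence of binding.

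Together the 87 genes took 1.15% to 1.51% of all counted reads in the 23 cords (mean 1.33%, SD 0.0859). Compared per kilobase of exon (RPKM), Rplp1 was highest at 736 ± 63.3 RPKM (SD, n = 23). It encodes an acidic protein of the ribosomal stalk, which recruits elongation factors. Rps15, next to the decoding centre of the small subunit, followed at 343 ± 26.7 RPKM, then Rps29 at 299 ± 29.6 RPKM, Rpl4 at 247 ± 9.83 RPKM and Rpl38, known for its role in translating Hox messages, at 227 ± 21.0 RPKM. Over the cords the range of Rps15 (283 to 395 RPKM) overlapped that of Rps29 (238 to 342 RPKM), and the ranges of Rps29, Rpl4 and Rpl38 overlapped each other. The median of the gene means was 78.0 RPKM. The length used here is that of all annotated exons of a gene. For Rplp1 it is 499 bases, the same as its main transcript. For Rps24 it is 6256 bases against 468 in the main transcript, and for Rps3 4483 against 489. The order of genes by RPKM therefore also depends on how many exons are annotated, and is not an order of message levels.

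Several core genes were very low, and the way reads were counted bears on them. Rps10 (chr17:27630418-27636669, minus strand) stood at 1.14 RPKM, Rpl24 (chr16:55966275-55971435, plus strand) at 1.02 and Rpl13a (chr7:45125558-45128761, minus strand), a common reference gene for quantitative PCR, at 6.24. The annotation places another gene over 91.6% of the main Rps10 transcript (the readthrough gene RPS10-NUDT3), 71.5% of that of Rpl24 (Gm28037) and 82.8% of that of Rpl13a (Gm45713). The counting left out reads that fall on more than 1 gene, so these 3 values are not the genes' message levels. In all, 7 of the 87 genes had more than 50% of the transcript under another gene, among them Rpl36al (63.1%), Rpl35 (68.3%), Rpl23a (55.4%) and Rps12l1 (100%). Processed pseudogenes are a second source of lost reads, since reads that align to several places were not counted either. In 56 of the 87 genes, under 50% of the 50-base words of the main transcript were found in no other annotated transcript. The order of levels between genes is therefore uncertain, whereas the same gene can be compared between libraries. The 300 annotated ribosomal protein pseudogenes named with the ending -ps together held 25.004 to 35.931 CPM in the cords.

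The copies of ribosomal protein genes known from testis or striated muscle were low or at 0. Rpl10l, an autosomal copy of the X-linked Rpl10 known from testis, had no read in any library, which allows up to 0.0338 CPM in the smallest one. Rps12l1 also had none, but with its whole transcript under another gene no read could be assigned to it, so this sets no limit on its level. Rpl39l, another testis copy, averaged 0.0390 RPKM against 48.3 for Rpl39. Rpl3l, the striated-muscle copy of Rpl3, averaged 0.402 RPKM against 149 for Rpl3, which is 0.269%. Rpl36al, a widely expressed copy, averaged 0.318 RPKM against 44.7 for Rpl36a, and as 63.1% of its transcript lies under another gene this is not its message level. Among other copies with a wider known expression, Rpl22l1 reached 24.5 ± 2.41 RPKM, which is 52.2% of Rpl22. Rps27l, a p53 target, reached 19.1 ± 1.47 RPKM or 17.1% of Rps27. Rps4l, a copy on chr6:148354656-148355598 of the X-linked Rps4x, reached 19.4 ± 3.32 RPKM or 11.5% of Rps4x. Rpl7l1, which has a known role in ribosome assembly, reached 12.6 ± 0.460 RPKM or 11.1% of Rpl7. These percentages depend on annotated exon length and on lost reads, and are not ratios of message levels. In CPM, Rpl22l1 averaged 48.8 and Rpl22 137. The 50-base words found in no other gene made up 77.6% in Rps27l against 16.4% in Rps27, and 82.0% in Rps4l against 27.8% in Rps4x. They made up 87.8% in Rpl7l1 against 46.7% in Rpl7, but 38.5% in Rpl22l1 against 75.5% in Rpl22.

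Most of the genes varied together from library to library. In wild-type female vehicle replicate 2 and in wild-type male vehicle replicate 3, 3 of the 84 genes that passed the filter on low counts were above their median over the 23 cords. In wild-type male vehicle replicate 2 and knockout male vehicle replicate 3, 80 were. The summed share was lowest in wild-type vehicle females, at 1.203%, 1.148% and 1.303% in replicates 1 to 3. The 2 wild-type paclitaxel female cords had 1.407% and 1.364%. Wild-type vehicle males had 1.399%, 1.411% and 1.266%, and wild-type paclitaxel males 1.209%, 1.459% and 1.383%. Knockout vehicle females had 1.298%, 1.301% and 1.335%, and knockout paclitaxel females 1.265%, 1.293% and 1.418%. Knockout vehicle males had 1.352%, 1.380% and 1.512%, and knockout paclitaxel males 1.315%, 1.267% and 1.324%. Single libraries of 1 group were thus as far apart as the groups: wild-type paclitaxel males alone covered most of the range of the 23 cords.

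**Figure D1:**
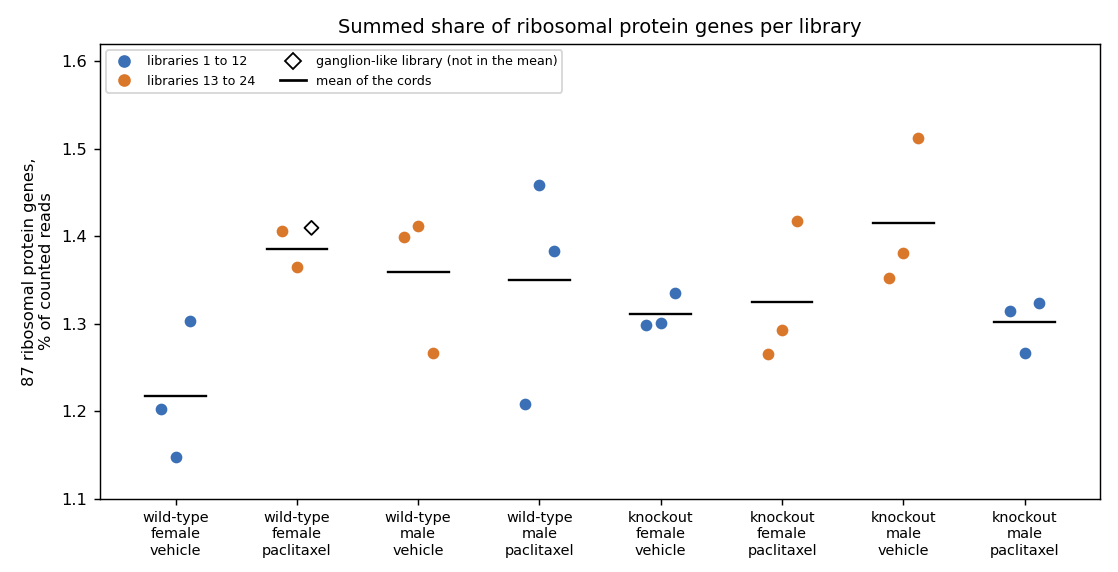
Share of all counted reads taken by the 87 ribosomal protein genes (y axis, percent, starting above 0) in each library of the 8 groups (x axis), coloured by library set, with the mean of the cords as a line and the ganglion-like library as an open diamond. The cords run from 1.15% to 1.51%, and wild-type vehicle females have the lowest mean, 1.22%.

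Among the 80 genes with a mean of at least 1 CPM, the correlation of log2 CPM between 2 genes over the 23 cords had a median of 0.75. The points share their libraries, and the value is a description. The genes closest to the rest were Rplp1, with a median correlation of 0.88 with the other 79, Rpl34 (0.88) and Rpsa (0.87), the laminin-binding protein of the small subunit. The least close were Rps4l (-0.11), Rpl7l1 (0.15), Rpl13 (0.34) and Rps2 (0.34). The median SD of log2 CPM was 0.11 over the 80 genes. It was smallest in Rpl7l1 (0.05), Rpl4 (0.06) and Rpl6 (0.06), and largest in Rpl13 (0.38), Rpl24 (0.26) and Rps2 (0.25).

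**Figure D2:**
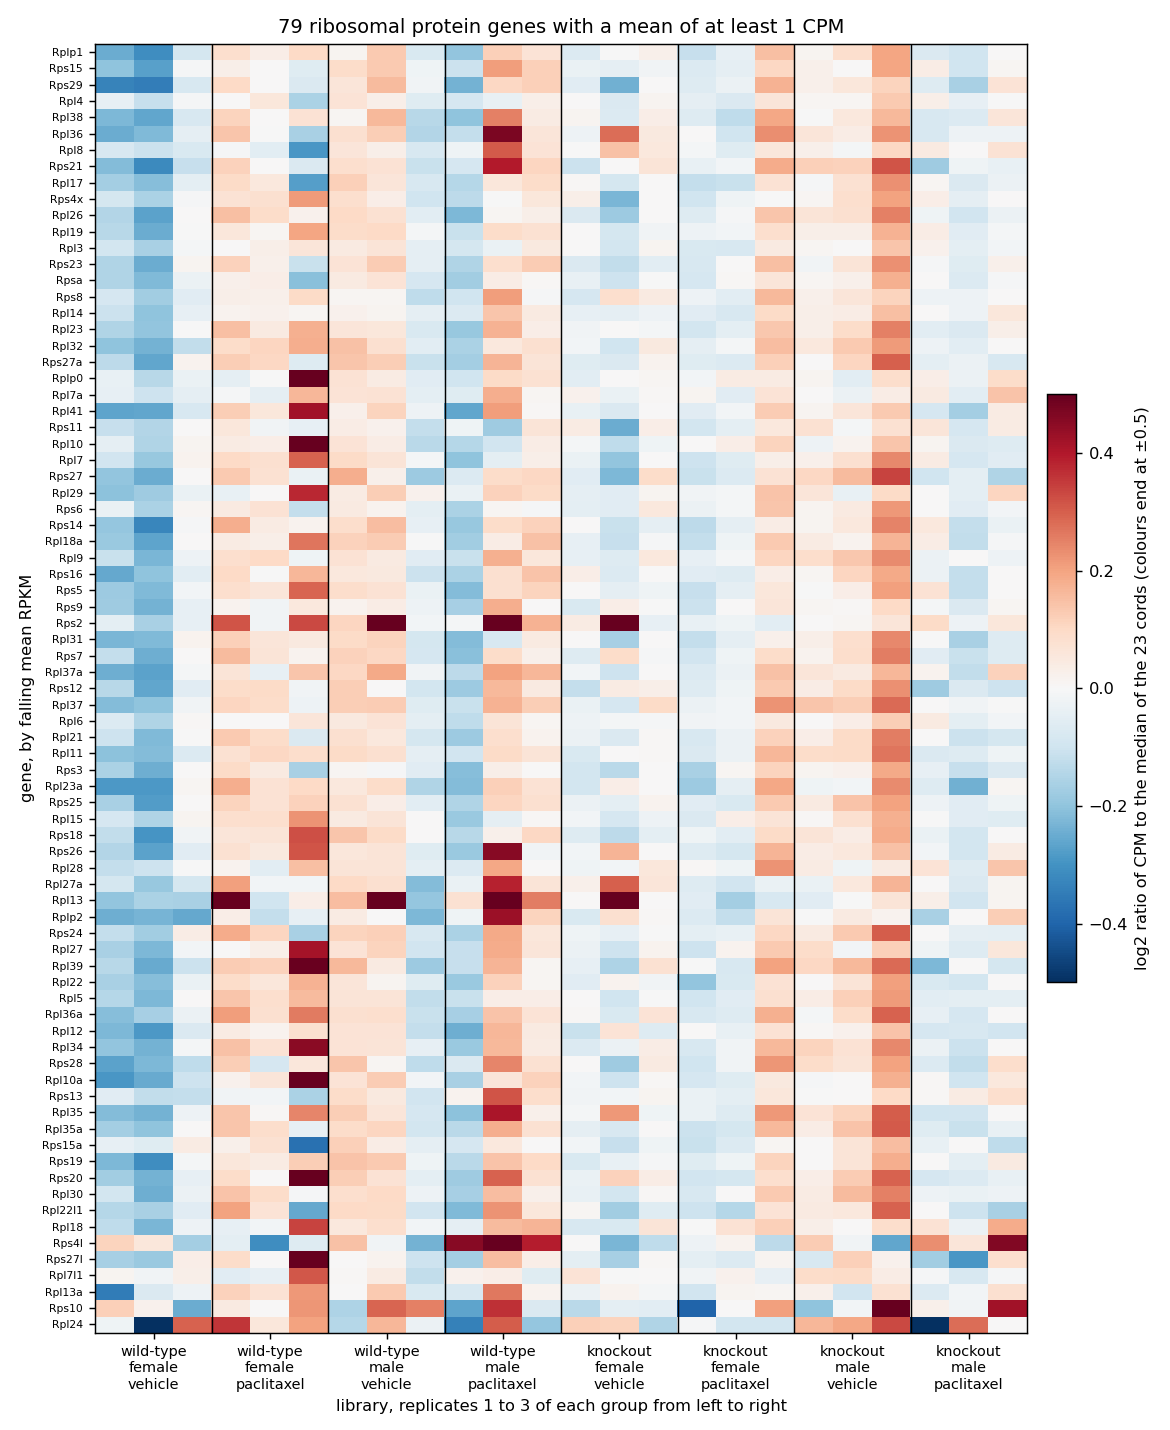
Level of 79 of the 80 ribosomal protein genes with a mean of at least 1 CPM (rows, by falling mean RPKM) in the 24 libraries (columns, replicates 1 to 3 of each group from left to right), as the log2 ratio to the gene's median over the 23 cords, with colours ending at ±0.5. Whole columns are pale blue or red, such as wild-type female vehicle replicate 2, where 3 of 84 genes lie above their median, while Rpl13 and Rps2 are dark in 4 columns of their own, and the third wild-type paclitaxel female column is the ganglion-like library.

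Rpl13 (chr8:123102350-123105244, plus strand) and Rps2 (chr17:24718116-24721929, plus strand), of the large and the small subunit, varied with each other instead. The pair was singled out after its values were seen. Rpl13 was high in 4 libraries: paclitaxel replicate 2 of the wild-type males (267 CPM), vehicle replicate 2 of the knockout females (253 CPM), vehicle replicate 2 of the wild-type males (219 CPM) and paclitaxel replicate 1 of the wild-type females (181 CPM). It lay between 110 and 150 CPM in the other 19 cords. Rps2 reached 242, 240, 227 and 183 CPM in those same 4 libraries and lay between 131 and 166 CPM in the others. Each of these 4 libraries belongs to a different group. The correlation of Rpl13 and Rps2 over the 23 cords was 0.98. Besides Rps2, the genes of all those tested whose log2 CPM was most like that of Rpl13 were Zfp771 (0.99), Ccdc85b (0.98), Gnas (0.97) and Nr2f6 (0.97). Zfp771 lay at 15.302 to 28.001 CPM in the 4 libraries and at 7.03 to 10.1 CPM in the other 19. The 4 libraries gave 7.20% to 8.55% of their reads to the 1587 genes of highest GC content (57.8% or more), and the others 6.94% to 8.03%. The part of base composition in the pattern was not tested.

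The first question of the design was whether levels differed with paclitaxel and whether that difference depended on the myeloid Chrna7 deletion. Over both genotypes, 68 of the 84 tested genes were nominally higher with paclitaxel (median log2 fold change 0.02), none passed an adjusted p of 0.05 in edgeR, and 0.0197% of all genes did. In wild-type cords, 81 of the 84 tested genes were nominally higher with paclitaxel than with vehicle, with a median log2 fold change of 0.09. In knockout cords, 13 of 84 were higher, with a median of -0.05. None of these genes passed an adjusted p of 0.05 in edgeR's quasi-likelihood test over 25372 genes, where the share of all genes called was 0% in wild-type and 0.0236% in knockout cords. Over all tested genes the medians were 0.01 and 0.00, and 51.9% and 50.6% were higher. At an unadjusted p under 0.05 stood 15 of the 84 genes in wild-type cords (17.9%, against 7.97% of all genes) and 3 in knockout cords (3.57%, against 11.3%). DESeq2 and limma voom also called none of the 84, and edgeR without a filter on low counts called 5 in wild-type and 1 in knockout cords. Without that filter more of all genes were called too in every main contrast. Its member counts, here and below, are to be read against the counts of all genes given in the last section.

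Rplp2, an acidic stalk protein like Rplp1, had the lowest p among the named genes in wild-type cords. Wild-type vehicle cords held 90.9 to 112 CPM (median 92.8) and wild-type paclitaxel cords 100 to 146 CPM (median 111), so the groups overlapped. Its log2 fold change was 0.21 (SE 0.07), with an adjusted p of 0.528 in edgeR. Rps21, a small-subunit protein, had 0.19 (SE 0.07, adjusted p = 0.531), and Rpl13 0.32 (SE 0.23, adjusted p = 0.752). In knockout cords the extremes among members of at least 1 CPM were Rps4l at 0.19 (SE 0.08, adjusted p = 0.381) and Rpl13 at -0.26 (SE 0.21, adjusted p = 0.703). Rplp0, the stalk base and a common reference gene, had values within 1 SE of 0 in both genotypes. It ranged from 182 to 214 CPM over the 23 cords.

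The difference between the genotypes in their paclitaxel response had a median of -0.14 over the 84 genes, of which 8 were above 0. The median over all tested genes was -0.01, with 48.3% above 0. No gene in the whole table passed (0% called), and at an unadjusted p under 0.05 stood 25 of the 84 (29.8%) against 8.41% of all genes. DESeq2 and limma voom called none of the 84, and edgeR without a filter called 10, in a fit that also called more of all genes (last section). Rpl27a had -0.31 (SE 0.10) and Rps21 -0.29 (SE 0.10), both with an adjusted p of 0.512 in edgeR, and Rpl13 had -0.58 (SE 0.31, adjusted p = 0.629). Short genes as a whole lay on the same side: the 5075 genes with the least exon length (up to 1268 bases, 21 of the 84 among them) had a median of -0.10, and the next 5074 genes (36 of the 84) -0.03. With an offset for GC content and exon length, an alternative added after the data were seen, the median of the 84 genes was -0.11, with 12 above 0. Without the 4 libraries of high Rpl13 it was -0.09, with 9 above 0. Of the marker genes of other tissue parts, all 10 skeletal muscle markers were above 0 in this contrast (median 1.13), as were 9 of 10 endothelial (0.36), all 10 microglial (0.15) and 9 of 10 oligodendrocyte markers (0.13). None of those markers passed the test. Summed muscle markers ranged from 4.42 to 51.8 CPM in the cords. The part of tissue composition in the contrast was not tested.

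Split by sex, the paclitaxel medians over the 84 genes were 0.18 in wild-type females (81 above 0), 0.01 in wild-type males (45), 0.04 in knockout females (64) and -0.13 in knockout males (13). None of the 84 was called in any of the 4, against 0% of all genes in the first 3 and 0.784% in knockout males. At an unadjusted p under 0.05 stood 41, 4, 0 and 32 of the 84, against 12.2%, 12.2%, 5.49% and 16.2% of all genes. Wild-type females were the group with the lowest vehicle libraries, and only 2 cords carried paclitaxel there. Without wild-type female paclitaxel replicate 1 the median of that group was 0.11. The knockout female median was -0.02 without knockout female paclitaxel replicate 3. The wild-type male median ran from -0.07 without replicate 2 of the paclitaxel group to 0.08 without its replicate 1. Each of these 4 contrasts compares libraries of different sets.

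**Figure D3:**
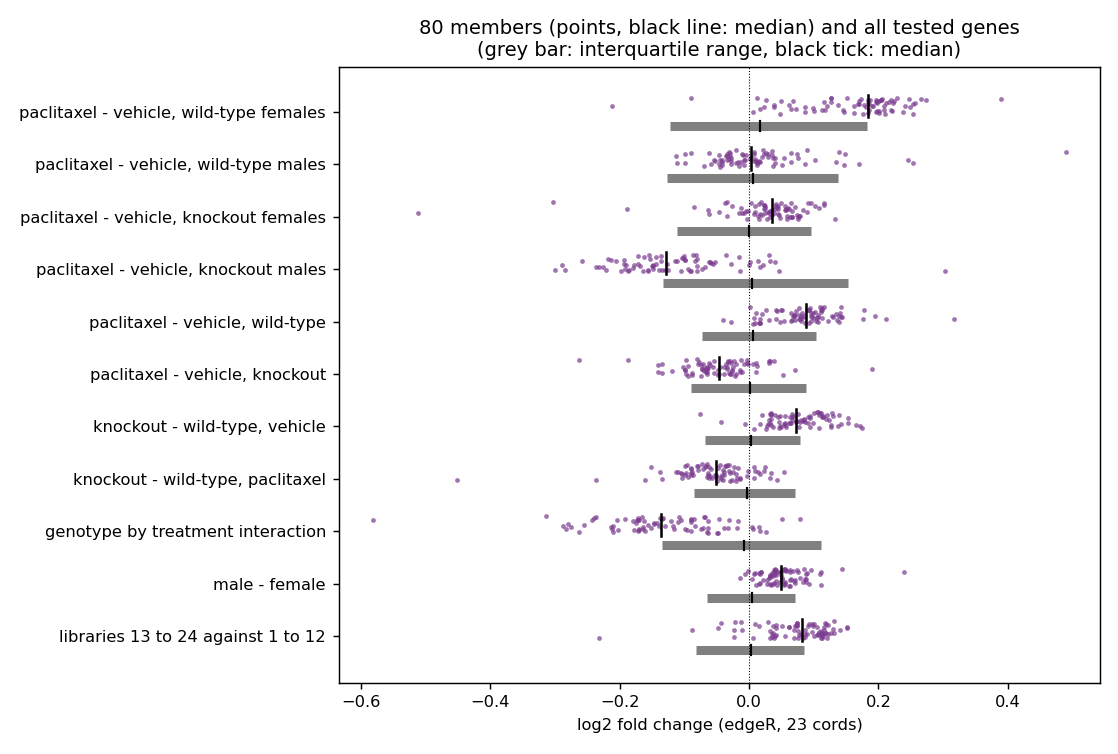
Log2 fold changes (x axis) of the 80 ribosomal protein genes with a mean of at least 1 CPM (points, their median as a black line) in 11 contrasts (y axis), above the interquartile range and the median of all tested genes (grey bar and black tick). The points lie to the right in wild-type females with paclitaxel, where the median over the 84 tested genes is 0.18, and to the left in knockout males (-0.13) and in the genotype by treatment interaction (-0.14).

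The second question was the effect of the genotype itself. Over all cords, 65 of the 84 genes were nominally higher in knockout than in wild-type, with a median of 0.01; none passed, and 0.0118% of all genes did. None of the 84 had an unadjusted p under 0.05, and the other tools called none except edgeR without a filter, which called 1. Under vehicle the median was 0.07 (79 of 84 above 0; 0.00788% of all genes called) and under paclitaxel -0.05 (11 above 0; 0.00394% called). No member passed in either. At an unadjusted p under 0.05 stood 17 of the 84 under vehicle (20.2%, against 5.20% of all genes) and 3 under paclitaxel (3.57%, against 6.18%). DESeq2 and limma voom called none, and edgeR without a filter 2 in each. Both contrasts use the same libraries as the paclitaxel contrasts above and add no independent view. Among members of at least 1 CPM, Rps21 had the largest value under vehicle, 0.17 (SE 0.07, adjusted p = 0.911 in edgeR), followed by Rpl36 and Rpl35. Under paclitaxel Rpl13 had -0.45 (SE 0.23, adjusted p = 0.810) and Rps2 -0.24 (SE 0.15, adjusted p = 0.8286). Without the 4 libraries of high Rpl13, 45 of the 84 were above 0 under paclitaxel and the median was 0.01. These libraries were picked for a high member, and the 2 of them in the wild-type paclitaxel group have its highest summed shares, so leaving them out lowers the wild-type side by construction. Within the library sets the genotype medians were 0.02 in libraries 1 to 12 (65 above 0) and 0.01 in libraries 13 to 24 (54 above 0). None of the 84 was called in either, against 0.00788% and 0.00394% of all genes.

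Between the sexes, 80 of the 84 genes were nominally higher in males, with a median of 0.05 against 0.00 for all tested genes. None was called at an adjusted p under 0.05, where 0.918% of all genes were, and 13 of the 84 (15.5%) had an unadjusted p under 0.05, close to the 13.2% of all genes. DESeq2 called 1, limma voom none, edgeR without a filter 4 and edgeR with replicate number as a block 1. The nearest to the threshold was Rps4l, at 0.24 (SE 0.06, adjusted p = 0.0515 in edgeR). Its level was high in 1 combination of sex and treatment. The 6 paclitaxel-treated male cords held 24.0, 24.8 and 23.003 CPM in wild-type and 20.6, 18.2 and 24.1 CPM in knockout. The other 17 cords held 14.1 to 19.4 CPM (median 17.2). The groups overlap by knockout male paclitaxel replicate 2. Its X-linked counterpart Rps4x did not follow, with a median of 275 CPM in both sets. Paclitaxel against vehicle gave Rps4l 0.49 (SE 0.11, adjusted p = 0.219) in wild-type males and 0.30 (SE 0.11, adjusted p = 0.174) in knockout males, against -0.21 (SE 0.13) and 0.08 (SE 0.11) in wild-type and knockout females. The genes most like Rps4l over the 23 cords were Sertad1 (0.90) and Vat1 (0.86), neither in the family. Sertad1 lay at 4.10 to 5.60 CPM in the paclitaxel males and at 3.02 to 4.79 CPM elsewhere. All 6 of these libraries are in libraries 1 to 12, so sex, treatment and library set cannot be told apart here.

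The contrast of the library sets, which is the sex by treatment interaction in another scale and sign, was the only one of the 9 main contrasts in which members were called. In libraries 13 to 24, 73 of the 84 genes were higher, with a median of 0.08 against 0.00 for all tested genes. Of the 84, 9 rose, against 2.24% of all genes called higher, and 1 fell, against 2.72% called lower. In all 4.96% of genes were called.

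Among those that rose were Rpl26, Rpl32, Rpl11, Rps18, Rpl15, Rpl31, Rpl30 and Rpl7. Rpl26 (chr11:68901583-68906989, plus strand), which sits near the exit of the nascent peptide and is known to bind the p53 message, lay at 198, 231 and 244 CPM in libraries 1 to 12 (lowest, median, highest of 12) and at 228, 253 and 284 CPM in 11 libraries of 13 to 24. The sets overlapped. Its log2 difference was 0.15 (SE 0.04), with an adjusted p of 0.0198 in edgeR. Rpl32 lay at 103, 118 and 129 CPM against 117, 130 and 141 CPM, a difference of 0.13 (SE 0.03, adjusted p = 0.0206). Rpl11, which with 5S ribosomal RNA and Rpl5 restrains Mdm2, lay at 179, 198 and 222 CPM against 197, 221 and 250 CPM, a difference of 0.12 (SE 0.03, adjusted p = 0.0254). For the other 5 of these genes the differences ran from 0.10 (Rpl15) to 0.13 (Rpl31), with adjusted p between 0.0296 and 0.0456. No member had sets that did not overlap. Just outside the threshold stood Rpl39, at 0.15 with an adjusted p of 0.0518. Rps4l fell by 0.23 (SE 0.06, adjusted p = 0.0286): 14.9, 18.6 and 24.8 CPM in libraries 1 to 12 and 14.1, 17.2 and 19.4 CPM in libraries 13 to 24. Rps4l has 60.1% GC, and it was not called with an offset for GC content, alone or together with exon length. The call was also lost without some single cords, such as wild-type vehicle female replicate 1 or 2. The part of base composition in the Rps4l difference was not tested.

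The count of calls depended on the test and on single libraries. DESeq2 called 26 of the 84 (15.8% of all genes), edgeR without a filter on low counts 33 (5.22%) and limma voom 9 (4.46%). Leaving out 1 cord at a time left between 1 and 29 of the 84 called, while 0.923% to 9.56% of all genes were called. Among wild-type cords, the count was 2 without vehicle female 1 or 2, 28 without vehicle female 3, 1 and 2 without paclitaxel female 1 and 2, 5 without vehicle male 2, and 4 and 29 without paclitaxel male 1 and 2 (numbers are replicates). Among knockout cords, it was 5 without vehicle female 1, 19, 6 and 2 without paclitaxel female 1, 2 and 3, 24, 5 and 2 without vehicle male 1, 2 and 3, and 4 without paclitaxel male 3. In the same order, the shares of all genes called without a wild-type cord were 1.92%, 1.81%, 7.56%, 0.923%, 1.68%, 3.22%, 3.52% and 6.05%. Without a knockout cord they were 2.51%, 6.41%, 2.07%, 2.21%, 9.56%, 2.61%, 1.66% and 2.43%. None of the 84 was called with all 24 libraries (0% of all genes) or without the 4 libraries of high Rpl13 (1.19%). Rpl26 and Rpl32 kept an adjusted p under 0.05 when any 1 cord but 1 was left out, in 22 of 23 fits each.

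**Figure D4:**
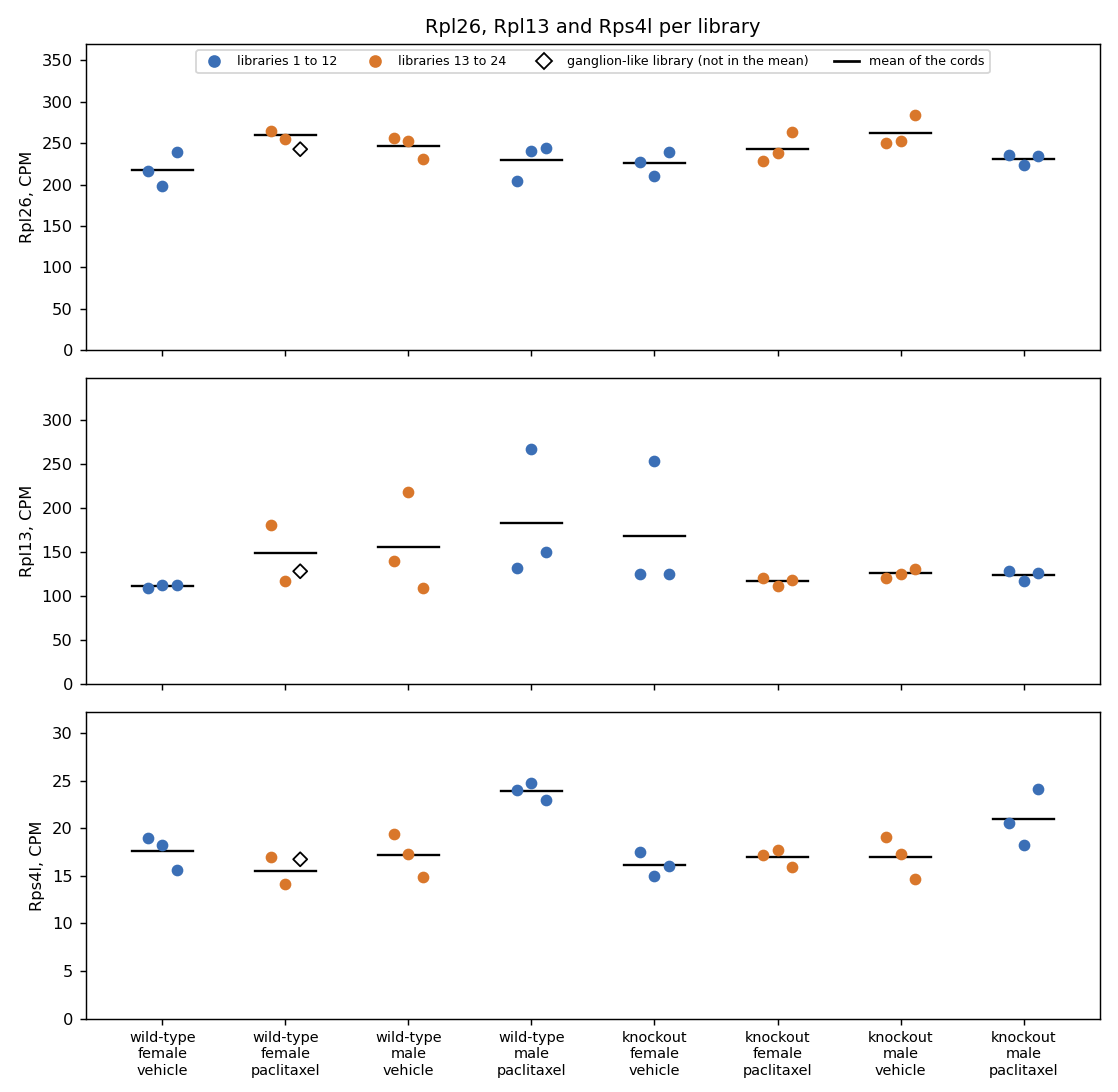
Level of Rpl26, Rpl13 and Rps4l in CPM (y axes, from 0) in each library of the 8 groups (x axis), coloured by library set, with the mean of the cords as a line and the ganglion-like library as an open diamond. Rpl26 is mildly higher in libraries 13 to 24 (median 253 against 231 CPM), Rpl13 is high in 4 single libraries, and Rps4l is highest in paclitaxel-treated males.

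Base composition, cell types and the TOP tract can be set beside the library-set contrast. The median of all genes was lower at higher GC content, from 0.07 in the 5073 genes of lowest GC to -0.05 in the 5073 of highest GC. Of the 84, 4 are among the former and 17 among the latter. With a GC offset, added after the data were seen, the median of the 84 was 0.10, 75 were above 0 and 6 were called, against 2.00% of all genes. With GC and length offsets, 16 were called, against 2.76% of all genes. The 10 muscle markers were all lower in libraries 13 to 24 (median -1.37, Acta1 and Actn3 called), as were the 10 endothelial markers (median -0.22, Abcb1a and Tek called), and 8 of 10 microglial markers (median -0.12, Csf1r and Cx3cr1 called). Of 12 neuron markers 10 were lower (median -0.11, with Gad1, Rbfox3, Slc32a1 and Tubb3 called). Not all lists fell. Summed oligodendrocyte markers averaged 26879 CPM in libraries 1 to 12 and 27184 CPM in libraries 13 to 24. In the same order, astrocyte markers averaged 8169 and 8153 CPM, oligodendrocyte precursor markers 1015 and 1012, and blood markers 320 and 327. Schwann cell markers averaged 523 and 447 CPM, and those of meninges and fibroblasts 681 and 664. The part of these cell types was not tested. Of the tested members with a RefSeq start site, the 30 with a TOP tract had a median of 0.08 and the 32 without one also 0.08. The 12 with CCGGAAGT had a median of 0.11 (12 higher, 4 called) and the 50 without it 0.07 (41 higher, 1 called), a difference that was not tested. In the genotype by treatment interaction the medians with and without a TOP tract were -0.14 and -0.13. Those with and without CCGGAAGT were -0.13 and -0.15. The TOP split rests on annotated start sites, and a start off by a few bases can put a gene on the wrong side. The near equal medians therefore do not decide whether the tract matters here.

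Other genes of the translation machinery were read from lists chosen for this family. Calls in short lists are to be read against the 4.96% of all genes called in the library-set contrast. Of a list of 4 ribosomal protein genes outside the rule, 3 were higher in libraries 13 to 24 and none was called. All 4 were below 0 in the genotype by treatment interaction, as with most of the 84. The 6 non-coding host genes of small nucleolar RNAs, which guide the modification of ribosomal RNA, lay on the same side as most of the 84: 6 of 6 were higher in libraries 13 to 24 (median 0.11), none called, and 0 of 6 were above 0 in the interaction (median -0.13). The nearest to a call was Gas5, with 0.13 (SE 0.04, adjusted p = 0.0518 in edgeR) in the library-set contrast. In the interaction Snhg6 had -0.39 (SE 0.13) and Snhg8 -0.34 (SE 0.10), both with an adjusted p of 0.512.

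Translation factors listed as having messages with the tract did not follow the members' direction as a list. In the library-set contrast 6 of 17 were higher (median -0.02), and Eef2, the elongation factor that moves the ribosome along the message, fell by 0.10 (SE 0.03, adjusted p = 0.0286 in edgeR), as did Eif4b by 0.09 (SE 0.02, adjusted p = 0.0365). Among 19 other initiation factors, 9 were higher (median -0.04) and Eif3c fell by 0.15 (SE 0.04, adjusted p = 0.0383). Of 18 mTOR pathway genes 10 were higher (median 0.02), and 2 genes for kinases of Rps6 rose: Rps6kb2 by 0.17 (SE 0.04, adjusted p = 0.0183) and Rps6kb1 by 0.10 (SE 0.03, adjusted p = 0.0206). Of 30 ribosome biogenesis genes 10 were higher (median -0.04), and Nolc1, Rrs1 and Bop1 fell. Of 9 ribosome quality control genes 7 were higher (median 0.05), and Gtpbp2 and Zfp598, which act on stalled and collided ribosomes, rose by 0.14 and 0.12. Of 9 genes of Myc and the p53 response 5 were higher, with none called. The 77 mitochondrial ribosomal protein genes had 38 higher (median 0.00), and Mrpl24, Mrpl42 and Mrpl10 were called, a share of the list below that of all genes.

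In the other 8 main contrasts these lists gave 1 call. Deptor, an inhibitor of mTOR, was lower in males (log2 fold change -0.11, SE 0.03, adjusted p = 0.0438 in edgeR). In the genotype by treatment interaction, 7 of the 17 tract-carrying translation factors, 10 of the 18 mTOR genes and 20 of the 30 biogenesis genes were above 0, with medians of -0.01, 0.00 and 0.02, while 17 of the 77 mitochondrial ribosomal protein genes were (median -0.06). None was called. In knockout males, where 0.784% of all genes were called between paclitaxel and vehicle, Rps6kb1 was called among the 18 mTOR genes and Mxd4 among the 9 genes of Myc and the p53 response.

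The ganglion-like library gave the family 1.41% of its reads, inside the range of the cords. Of the 84 tested genes, 57 lay inside the range of the 23 cords, 21 above it and 6 below it. Among the 15872 genes with a mean of at least 1 CPM in the cords, 30.2% lay above and 43.1% below. This is 1 library, so the comparison has no replicate check. Rplp0 stood at 337 CPM against 182 to 214 in the cords. Rps27l stood at 27.2 CPM against 13.1 to 17.8, Rpl10 at 368 against 211 to 258 and Rpl10a at 149 against 76.9 to 106. Rpl10 joins the large subunit late in assembly. Rpl3l, the muscle copy, stood at 1.96 CPM against 0.342 to 0.987, in a library whose muscle markers summed to 599 CPM. Below the cords were Rps15a (163 CPM against 193 to 235), Rpl8 (219 against 249 to 332), Rpl17 (186 against 194 to 264), Rpl22l1 (40.9 against 42.0 to 59.9), Rpl4 and Rps13. Rpl26 stood at 243 CPM, inside the range of the cords, while the stalk gene Rplp0 was far outside it.

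**Figure D5:**
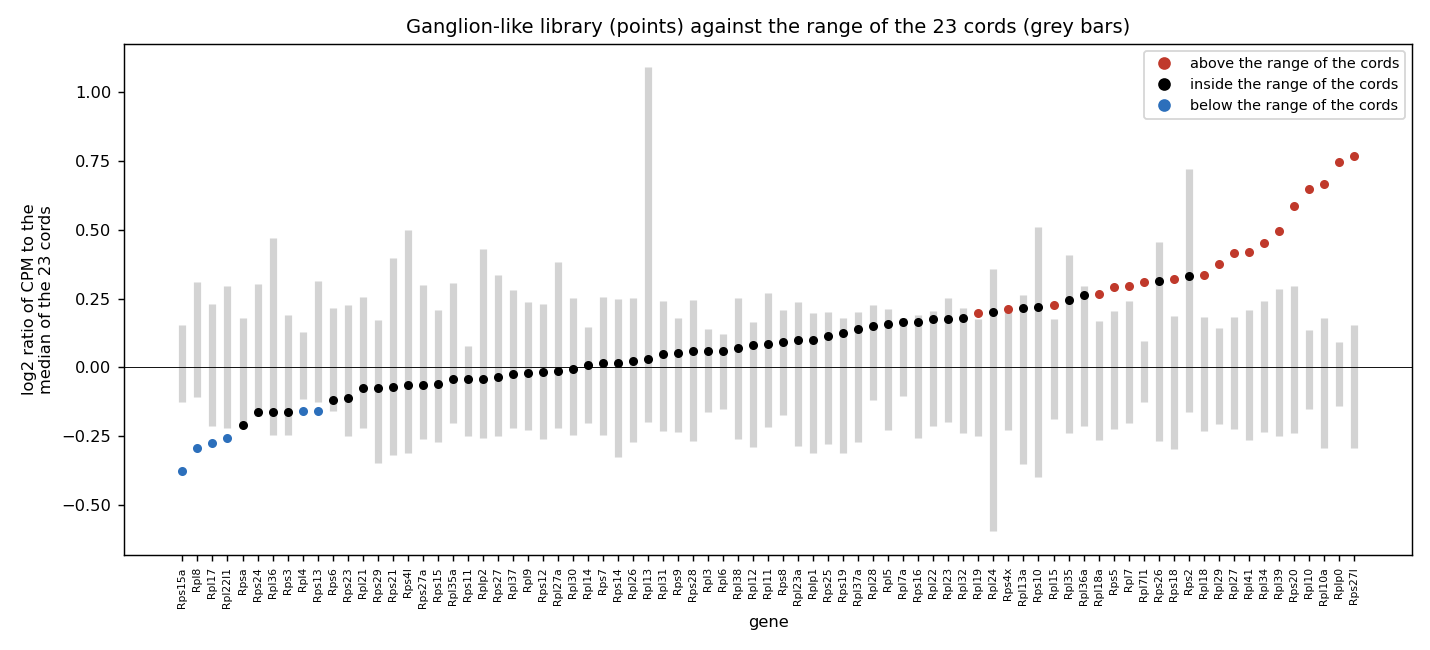
Level in the ganglion-like library (points), as the log2 ratio to the median of the 23 cords (y axis), for 79 of the 80 ribosomal protein genes with a mean of at least 1 CPM, ordered by that ratio (x axis), with the range of the cords as grey bars. Rps27l and Rplp0 are highest above the cords and Rps15a lowest below them; the long bars of Rpl13 and Rps2 come from their 4 high libraries.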

How the data were processed

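Read counts per gene symbol were deposited by the authors as 1 table of 24 libraries. Per the submitters' processing notes and the file headers, reads were aligned with STAR and counted with featureCounts 1.6.2 over exons of the Ensembl GRCm38 annotation with default options: strand was not used, and reads on several places or several genes were not counted, which lowers genes with pseudogenes or overlapping neighbours. The deposited counts were used unchanged; the table's exon lengths gave RPKM, and CPM came from library totals. The family members and the gene lists were chosen with earlier results of these data known. edgeR 4.0.16 (R 4.3.3; filterByExpr over 8 groups, TMM, robust quasi-likelihood test) was fitted to the 23 cords over 25372 genes, of which 84 of the 87 members were tested (not Rpl10l, Rps12l1 and Rpl39l), with Benjamini-Hochberg adjustment over all genes and a call at 0.05. The scripts were tested on simulated data. Named genes were Rpl26, Rplp0, the 5 highest and lowest RPKM, the 3 largest and smallest fold changes per contrast among members of at least 1 CPM, called members, the 3 largest and smallest SD, the 5 most apart in the ganglion-like library, and the paralogs; fold changes within 1 SE of 0 are not printed. No 2 replicates agreed within sampling noise. The labels do not say more of the replicates than that they are separate mice of a group. DESeq2 1.42.0 and limma 3.58.1, other scalings and filters, a replicate block and leaving out each cord were the alternatives. Promoter sequences are RefSeq's, and overlaps and 50-base words come from the GENCODE annotation of the same build. Counting error at this depth is small beside the spread between mice for most members. This does not hold for members of few reads, such as the 7 with a mean under 1 CPM, Rpl3l among them. Single results of some genes are not reported here; those genes were kept in all fits, sums and counts.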

Additional observations from a re-analysis of the deposited data

Results flagged for a closer look

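Single libraries were looked at for the summed CPM of the members, the 10 members called in the library-set contrast, and Rplp0, Rpl13, Rps2 and Rpl3l. In groups of 5 or 6 cords (a genotype and a treatment, both sexes), 12 of 60 combinations of these items and groups held 1 library whose gap to the nearest other library was large beside the whole range. Chance flags about 1 in 20 such groups, and genes that vary together are not separate cases. Rpl13 and Rps2 were taken up after their high libraries were seen, so the count of 12 cannot be weighed against that rate. Knockout female paclitaxel replicate 3 stood high for Rpl11 (233 CPM, next 205), Rpl26 (263 CPM, next 238), Rpl30 (88.4 CPM, next 80.7) and Rpl32 (135 CPM, next 122). Wild-type male paclitaxel replicate 1 stood low for Rpl11 (194 CPM, next 217) and Rpl32 (109 CPM, next 126). Rpl13 and Rps2 were high in wild-type male vehicle replicate 2 (219 and 227 CPM) and in knockout female vehicle replicate 2 (253 and 240 CPM), both among the 4 libraries described above. Rpl3l was low in wild-type female vehicle replicate 1 (0.470 CPM, next 0.662), at a level where counting error is not small.

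A sex difference in the paclitaxel response cannot be told apart from the contrast of the library sets described above. In that contrast edgeR's quasi-likelihood test called 10 of the 84 genes, against 4.96% of all genes. None of the 84 was called with all 24 libraries or without the 4 libraries of high Rpl13. Of the 10 genes, 9 are given. As libraries 13 to 24 against 1 to 12, the log2 values were 0.15 for Rpl26, 0.13 for Rpl32, 0.13 for Rpl31, 0.12 for Rpl11, 0.12 for Rpl30, 0.12 for Rps18, 0.11 for Rpl7, 0.10 for Rpl15 and -0.23 for Rps4l.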

How the results depend on the processing

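Medians over the 84 genes moved by less than 0.0853 under all 36 settings run, the SD of single-library medians between replicates. Most medians of the main contrasts are themselves smaller than this SD, so staying within it does not show that they are stable. Not all kept their sign: leaving out 1 cord, the median for knockout against wild-type over all cords ran from -0.01 to 0.03. The counts of all genes called depended on the setting. The contrasts are given in the order paclitaxel over all cords, in wild-type and in knockout, knockout over all cords, under vehicle and under paclitaxel, male against female, library set, and interaction, with counts of 5, 0, 6, 3, 2, 1, 233, 1259 and 0. Without a filter on low counts they were 338, 254, 470, 99, 111, 215, 749, 2181 and 366. Of those DESeq2 changed by over 1.5 times, the first 8 were 167, 4, 137, 5, 4, 3, 583 and 2376. With all 24 libraries, 0 were called for paclitaxel over all cords, in knockout, for knockout under paclitaxel and for the library set, 1 for knockout under vehicle and 28 for sex. Without the 4 libraries of highest Rpl13 the counts were 3 for paclitaxel over all cords, 1 in wild-type, 1 and 2 for knockout under vehicle and paclitaxel, 68 for sex, 317 for the library set and 1 for the interaction. Library totals alone, or a mean of at least 1 CPM, gave 3 for paclitaxel over all cords. Fitting only the groups compared gave 3 for paclitaxel in knockout, and 1 and 0 for knockout under vehicle and paclitaxel. A GC offset gave 2 for knockout under paclitaxel and 507 for the library set, and GC and length offsets 699 for the library set. Leaving out 1 cord at a time, the counts ran from 2 to 62, 0 to 4, 0 to 332, 3 to 5, 1 to 3, 0 to 2, 65 to 324, 248 to 2419 and 0 to 1. The knockout value of Rpl13 changed sign from -0.16 to 0.0072 without the 4 libraries, and the male value of Rplp0 from 0.04 to -0.047 with all 24. The causes were not tested. The GC and length offsets and the 4 libraries were chosen after seeing the data.

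The labels do not say whether replicate numbers pair the mice, and the values here do not settle it. Over 77 pairs of cords with the same number, deviations from the group means correlated by -0.07 to 0.09. Over 154 pairs with different numbers the range was also -0.07 to 0.09. Of 23 cords, 11 correlated best with a cord of their own number. With a replicate block, 9 genes were called for paclitaxel over all cords, 0 for knockout under paclitaxel and 1891 for the library set, of which 24 were among the 84. It also brought Rps4l under the threshold between the sexes (adjusted p = 0.0140 in edgeR, against 0.0515 without it).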
